A study of Mus musculus with 12 samples.

Results

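The mitochondrial solute carriers of the Slc25 family were followed through RNA of mouse heart muscle after sham surgery or myocardial infarction (MI), with or without weekly prednisone. Members were every gene symbol consisting of Slc25a and a number, with transcript rows summed to genes. The rule found 47 symbols among the 33641 in the table. Of these, 39 passed the filter on low values (1 TPM or more in 3 or more samples), as did 13158 genes in all. TPM is a transcript's share of its library after scaling by transcript length.

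There were 12 hearts, each from a different male mouse of the wild-type C57BL/6 strain and each with its own library, 3 in every group. The 4 groups were sham with vehicle, sham with prednisone, MI with vehicle and MI with prednisone. Prednisone, a synthetic glucocorticoid, was diluted in PBS from a stock in DMSO and injected into the abdomen at 1 mg/kg once a week at lights-on (ZT0), from 2 weeks after surgery and for 6 weeks. Myocardium was taken 24 hours after the last injection. The composition of the vehicle, given weekly over the same time, and the infarct size are not given in the labels. The mice are labelled as about 16 weeks old, and the treatment protocol gives about 10 weeks at injection.

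Slc25 proteins sit almost all in the inner mitochondrial membrane, where each moves a small set of metabolites between matrix and cytosol. In the heart the most abundant exchange ADP for ATP and bring in phosphate, so that ATP made in the matrix reaches the contractile apparatus. Others carry citrate cycle acids, acylcarnitines, glutamate and aspartate, nucleotides, cofactors and iron, and a few have no settled substrate.

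Before the members are described, some features of the libraries bear on every value. MI vehicle replicate 3 stood apart, with 14307 genes at 1 TPM or more against 11690 to 12772 in the other 11 libraries. Mitochondrially encoded RNA took 24.6% and 21.6% of all TPM in MI prednisone replicates 1 and 2 and 23.1% in MI vehicle replicate 3, and 32.4% to 42.0% in the other 9 libraries. A cluster of nuclear copies of mitochondrial genes took 15.3% to 20.3% in the 3 MI prednisone libraries and 9.32% to 14.6% in the others, so the group with most of the called falls stood apart on this measure. All 7 cardiomyocyte markers were detected, and their summed level was 21970 to 27250 TPM in MI vehicle and 30590 to 36780 TPM in the other groups. Single markers did not all follow the sum. Means of Ryr2 and Actc1 were lowest in MI prednisone, at 30.2 and 4474 TPM, against 42.9 and 5222 TPM in MI vehicle and 81.2 and 5438 TPM in sham prednisone. The other 5 were above MI vehicle, of which Myh6, at 2438 TPM, stayed below sham vehicle (2938 TPM) and sham prednisone (3307 TPM). Fibroblast markers summed to 825 to 1015 TPM in MI vehicle and 285 to 490 TPM elsewhere, macrophage and leukocyte markers to 424 to 1124 TPM and 170 to 396 TPM. Atrial myocyte markers summed to 4335 to 6173 TPM in MI prednisone and 845 to 4106 TPM in the other groups. Of these Nppa had the highest mean, at 904 TPM in sham vehicle, 2706 TPM in MI vehicle and 3319 TPM in MI prednisone. The others did not follow it in MI vehicle. Means of Myl7, Sln and Myl4 were 445.5, 48.0 and 341 TPM in sham vehicle and 308, 31.9 and 244 TPM in MI vehicle. In MI prednisone they were 948, 104 and 716 TPM. In bulk tissue fewer cells of a type and less RNA per cell cannot be told apart. The part of cell composition and of these library differences in the changes below was not tested.

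Most of the family's RNA came from a few members. All 47 symbols together took 3717 to 4929 TPM per library, and 4 members made up 84.9% of it. Slc25a4, the adenine nucleotide translocase of heart and skeletal muscle, alone held 54.0%, at a mean of 2258 TPM over the 12 hearts. Slc25a3, the phosphate carrier, followed at 847 TPM, Slc25a11, the 2-oxoglutarate and malate carrier, at 256 TPM, and Slc25a5, the second adenine nucleotide translocase, at 188 TPM. The total stood at 4253 ± 198 TPM in sham vehicle, 4606 ± 300 TPM in sham prednisone, 3845 ± 141 TPM in MI vehicle and 4024 ± 117 TPM in MI prednisone (SD, n = 3 each). The MI libraries lay below the sham libraries under each treatment without overlap (two-sided exact permutation p = 0.1, the smallest that 3 against 3 hearts allow).

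**Figure D1:**
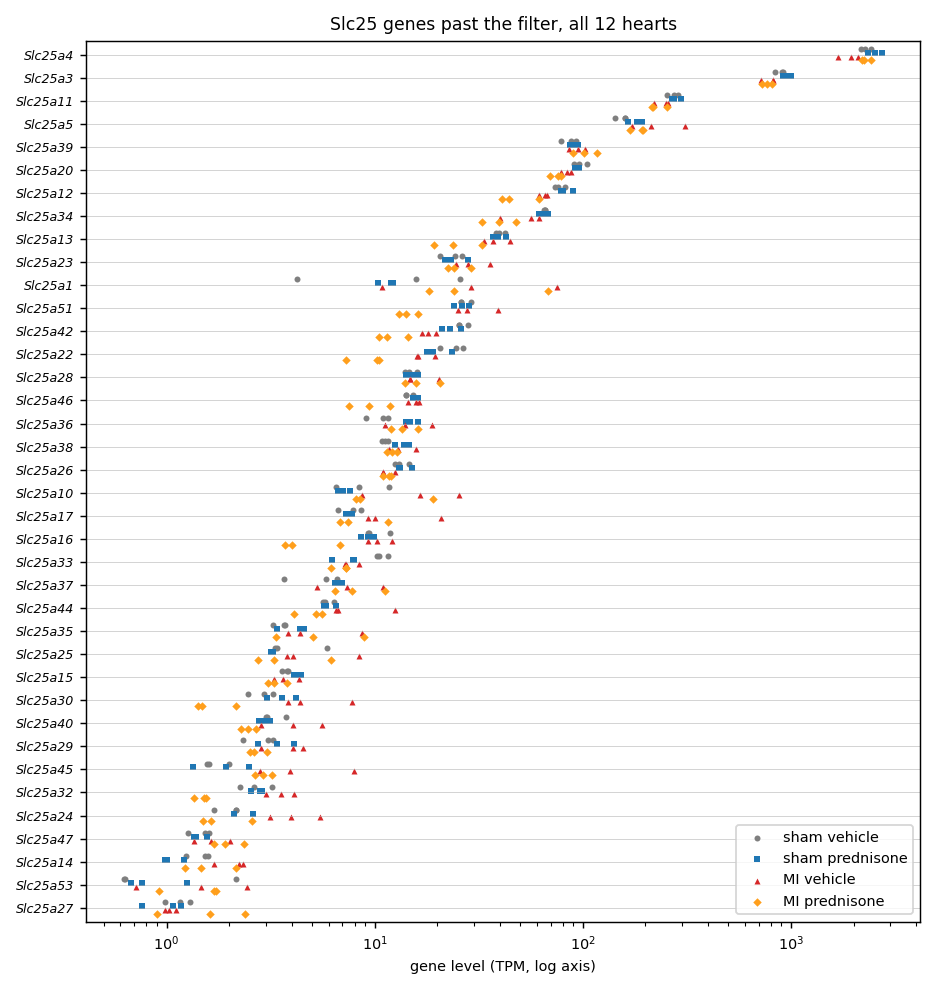
Level of 38 of the 39 Slc25 genes past the filter in each of the 12 hearts (TPM, log axis), ordered by their mean, with 1 symbol per heart and a colour and shape per group. Slc25a4 and Slc25a3 lie far to the right, and the MI prednisone symbols of Slc25a51, Slc25a22, Slc25a16 and Slc25a32 lie left of all other groups.

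Changes were tested with limma on log2(TPM + 1), on which a difference is called at an adjusted p under 0.05 over all 13158 genes. Changes of members with low TPM are understated on that scale. Of the 39 members, 17 were called in at least 1 of the 5 contrasts. That share was not counted over all genes, of which 37.4% were called for prednisone in MI alone. Infarction under vehicle gave 4 called members, 2 higher and 2 lower, or 10.3% of those tested, where 16% of all genes were called (15.1% higher and 0.904% lower). The median change of the 39 was 0.23, against 0.39 for all genes. Without any 1 of the sham vehicle hearts no member was called in that comparison, without MI vehicle replicate 2 or 3 there was 1, without sham prednisone replicate 1 there were 2, and without MI vehicle replicate 1 there were 9. Of all genes 168, 1173 and 120 were called without sham vehicle replicate 1, 2 and 3, against 2100 with all hearts. The number was 1481 and 940 without MI vehicle replicate 2 and 3, 1154 without sham prednisone replicate 1 and 5570 without MI vehicle replicate 1. Infarction under prednisone gave 12 lower and none higher (30.8% of the 39, with 13 at an unadjusted p under 0.05), where 16.8% of all genes were called and 14.1% were called lower. The members' median was -0.15, against -0.06. Without sham prednisone replicate 1, 2 or 3 the count was 5, 7 or 6, and without MI prednisone replicate 1 or 2 it was 5. Of all genes these refits called 1219, 1146 and 1169, then 1023 and 1041, against 2213 with all hearts.

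Prednisone in infarcted hearts also gave 12 members lower and none higher, 30.8% of those tested. Among all genes 37.4% were called and 34.9% were called lower, so the members' share was near the background. Their median change was -0.25, against -0.41 for all genes. Because the median of all genes moved that far, values were also rescaled by median ratios. Then 12 members were again called, but 7 were higher (Slc25a4, Slc25a27, Slc25a28, Slc25a36, Slc25a38, Slc25a39 and Slc25a47) and 5 lower (Slc25a16, Slc25a24, Slc25a30, Slc25a32 and Slc25a51). After rescaling 28.8% of all genes were called, 14.6% higher and 14.2% lower. Only those 5 were called lower on both scales. The same rescaling gave 6 called members for MI under vehicle, 3 of them among the 4 called before it, where 7.44% of all genes were called. For MI under prednisone it gave 8 members, all among the 12, where 3417 of 13158 genes were called, 1881 of them lower. In sham hearts prednisone gave no called member by limma, with 2 at an unadjusted p under 0.05, and the background was 0.114%. Sets of the same hearts enter several of these comparisons: MI vehicle hearts serve in the MI effect under vehicle and in the prednisone effect in MI, and MI prednisone hearts in that effect and in the MI effect under prednisone.

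**Figure D2:**
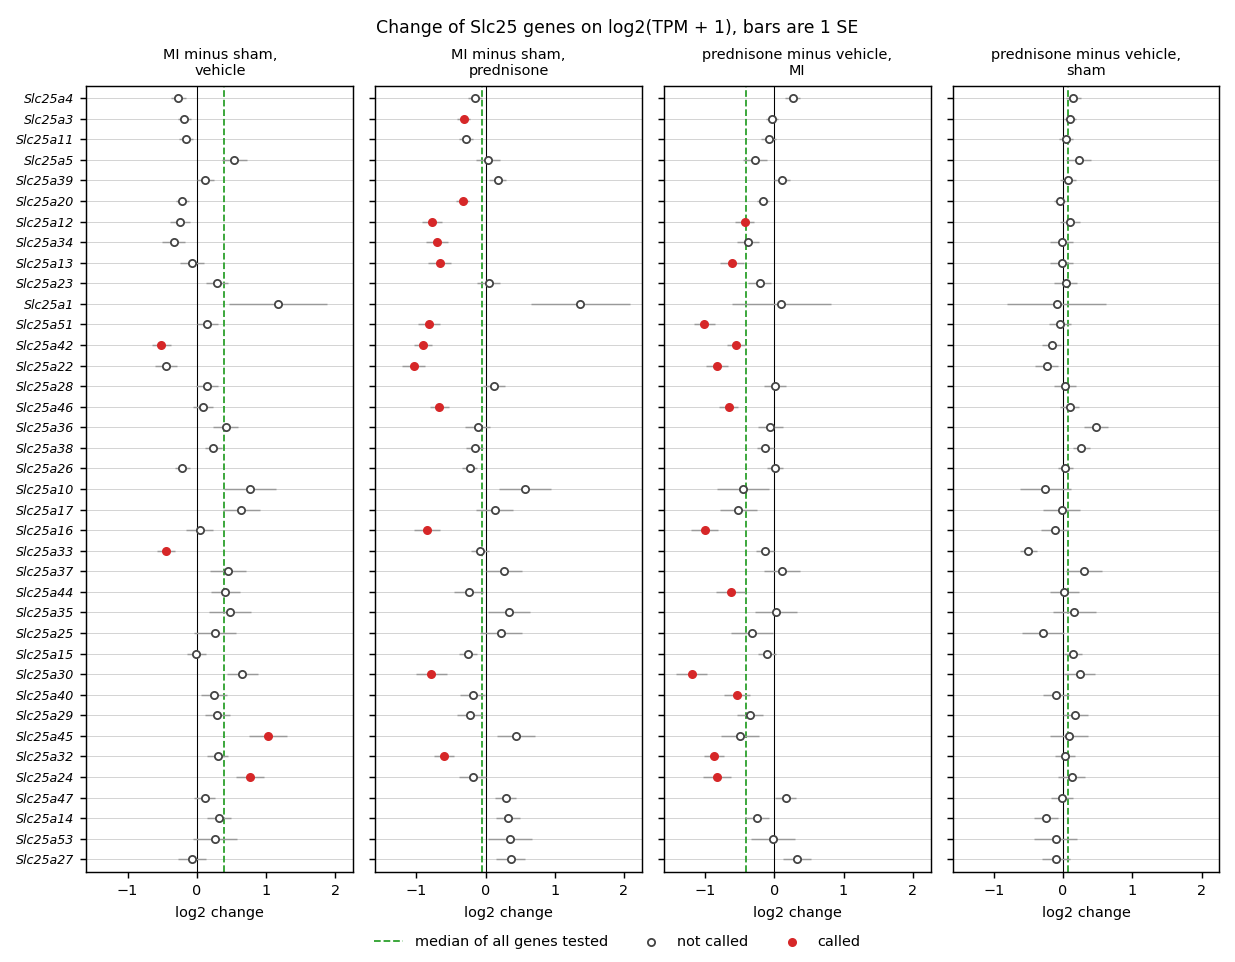
Change of 38 of the 39 tested Slc25 genes on log2(TPM + 1) in 4 comparisons (x axes), with bars of 1 SE, filled points for genes called by limma and a dashed line at the median of all genes tested. Called points lie left of 0 in both comparisons that involve the MI prednisone hearts, 12 in each, and none is filled in the sham comparison on the right.

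Among the ADP/ATP and phosphate carriers, only the fall of Slc25a3 with infarction under prednisone was called. Slc25a4 (chromosome 8, 46206797 to 46211284, GRCm38) stood at 2165, 2279 and 2434 TPM in the sham vehicle hearts, 2335, 2546 and 2753 TPM in sham prednisone, 1939, 2100 and 1688 TPM in MI vehicle and 2249, 2416 and 2196 TPM in MI prednisone. All 3 MI vehicle hearts lay below every other heart. The change with MI under vehicle was log2 change -0.27, SE 0.11, limma adjusted p = 0.0895, and with prednisone in MI log2 change 0.26, SE 0.11, limma adjusted p = 0.0716. After median-ratio rescaling the latter was called, at 0.73 on the log2 scale with limma adjusted p = 0.026.

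The gene level of Slc25a4 joins a pair of transcripts that moved in opposite directions with prednisone in MI. The coding transcript (1925 bases, 4 exons) held 82.2% of the gene's TPM. The rest was assigned to an annotated retained-intron transcript of 1275 bases, which keeps 428 bases of the intron after exon 3 and lacks exon 4. The junction that distinguishes them is shown as 30 bases of exon 3 in lower case, followed in capitals by what comes after it, on the minus strand, with the spliced form spanning chr8:46207591-46208427 and the unspliced form at chr8:46208368-46208427 (GRCm38).
Slc25a4 exon 3 joined to exon 4: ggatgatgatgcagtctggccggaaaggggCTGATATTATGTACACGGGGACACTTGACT
Slc25a4 exon 3 read into the intron: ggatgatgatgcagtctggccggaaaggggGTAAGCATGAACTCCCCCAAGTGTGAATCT

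The intron-retaining form took 19.4, 24.3 and 20.7 percent of the gene in sham vehicle and 23.0, 23.5 and 22.6 percent in sham prednisone. In MI vehicle it took 19.2, 24.7 and 21.2 percent, and in MI prednisone 1.95, 3.56 and 9.30 percent. The 3 MI prednisone hearts were thus far below the other 9, which lay between 19.2 and 24.7 percent. On the level scale the form fell from 416 ± 88.8 to 111 ± 83.1 TPM with prednisone in MI, which is -2.15 on the log2 scale (SE 0.41, and limma adjusted p = 0.00312 over 27769 transcripts). Against sham prednisone it fell by 2.66 on the log2 scale (SE 0.41, limma adjusted p = 0.00132). The prednisone effect differed between MI and sham by -2.40 (limma adjusted p = 0.018), a call that was lost after median-ratio rescaling (limma adjusted p = 0.0832).

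The coding Slc25a4 transcript went the other way with prednisone in MI. It stood at 1745, 1725 and 1929 TPM in sham vehicle, 1798, 1948 and 2130 TPM in sham prednisone, 1567, 1582 and 1330 TPM in MI vehicle and 2205, 2330 and 1991 TPM in MI prednisone. Prednisone raised it in MI by 0.54 on the log2 scale (SE 0.11, limma adjusted p = 0.00427), and the hearts of these groups did not overlap. Fitted on these groups alone the change was no longer called (limma adjusted p = 0.0515). Its change with MI under prednisone was 0.15 (limma adjusted p = 0.362) and the difference of prednisone effects 0.42 (limma adjusted p = 0.0796), neither called. With MI under vehicle both forms had fitted values below 0, -0.27 for the coding and -0.25 for the retained-intron form, and neither was called. Retained-intron transcripts of all genes together took 2.91 ± 0.37% of the TPM outside mitochondrial genes in MI prednisone and 2.37 ± 0.26% in MI vehicle, so the fall of the Slc25a4 form ran against the direction of that class. In the other members they took 2.00 ± 0.49% and 1.92 ± 0.91%.

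Slc25a5 (chromosome X, 36795651 to 36798807), the translocase of most tissues other than muscle, stood at 142, 159.6 and 159.7 TPM in sham vehicle and 164, 183 and 193 TPM in sham prednisone. In MI vehicle it stood at 172, 212 and 309 TPM and in MI prednisone at 168.5, 194 and 193 TPM. It was highest in MI vehicle replicate 3, and its change with MI under vehicle missed the threshold (log2 change 0.54, SE 0.18, limma adjusted p = 0.055). Because both genes are read from the same library, their ratio is free of any factor common to that library. It is not free of a trend with transcript length, which was 1237 bases for Slc25a5 and 1809 bases for Slc25a4. Slc25a5 was 6.71 ± 0.25% of Slc25a4 in sham vehicle, 7.08 ± 0.09% in sham prednisone, 12.4 ± 5.12% in MI vehicle and 8.10 ± 0.65% in MI prednisone (SD, n = 3 each). The MI vehicle hearts, at 8.89, 10.1 and 18.3 percent, lay above all 9 others, and the MI prednisone hearts above all 6 sham hearts (two-sided exact permutation p = 0.1 for each pair of groups). The fibroblast and leukocyte marker sums were also highest in MI vehicle, and their part in this ratio was not tested. The coding sequences of both translocases are identical at 77.4% of 894 bases, with no identical run longer than 20 bases.

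Slc25a3 (chromosome 10, 91116574 to 91124059) is made in a pair of forms that differ by mutually exclusive exons, of which the one with the exon of 125 bases is known from heart and skeletal muscle and the one with the exon of 122 bases from most tissues. Capitals mark bases that differ or are unmatched between the exons in a global alignment (77 of 125 columns identical), at chr10:91122207-91122331 and chr10:91121922-91122043, minus strand.
Slc25a3 longer exon: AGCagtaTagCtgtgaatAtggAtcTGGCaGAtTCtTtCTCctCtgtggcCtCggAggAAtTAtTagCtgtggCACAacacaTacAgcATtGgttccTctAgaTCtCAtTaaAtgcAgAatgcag
Slc25a3 shorter exon: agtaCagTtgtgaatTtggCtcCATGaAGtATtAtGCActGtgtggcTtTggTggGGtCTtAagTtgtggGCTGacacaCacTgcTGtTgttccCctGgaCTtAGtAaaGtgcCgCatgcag

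Transcripts with the exon of 122 bases made up 3.17, 3.39 and 3.01 percent of both forms in sham vehicle and 2.87, 2.91 and 2.62 percent in sham prednisone. The share was 4.39, 4.92 and 10.1 percent in MI vehicle and 4.43, 4.75 and 3.02 percent in MI prednisone. The MI hearts lay above the sham hearts within each treatment, and MI vehicle replicate 3 was highest by far (two-sided exact permutation p = 0.1 in each treatment). Summed over both forms and the minor transcripts, Slc25a3 stood at 838.5, 903 and 921 TPM in sham vehicle, 919.7, 934 and 1005 TPM in sham prednisone, 818, 816 and 718 TPM in MI vehicle and 764, 722.5 and 807 TPM in MI prednisone. Under prednisone it fell with MI without overlap (log2 change -0.32, SE 0.09, limma adjusted p = 0.0356), and that call was lost in 16 of 22 alternative settings. The MI effect under vehicle was log2 change -0.18, SE 0.09, limma adjusted p = 0.146.

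**Figure D3:**
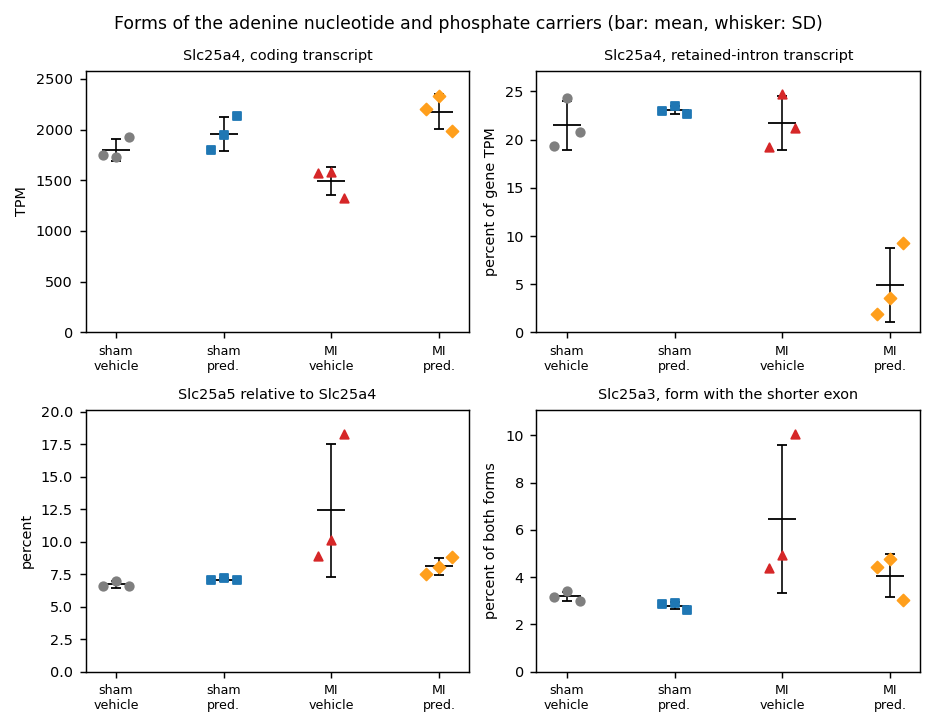
Values by heart for the coding transcript of Slc25a4 (TPM), the share of Slc25a4 in its retained-intron transcript (percent), Slc25a5 relative to Slc25a4 (percent) and the share of the Slc25a3 form with the 122-base exon (percent), in the 4 groups, where pred. is prednisone, horizontal bars are means and whiskers the SD of 3 hearts. The retained-intron share is between 1.95 and 9.30 percent in MI prednisone and above 19 percent in all other hearts, and both lower panels peak at MI vehicle replicate 3.

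The aspartate, glutamate carriers fell together in the MI prednisone hearts: Slc25a12, Slc25a13 and Slc25a22 were called lower both against sham prednisone, where 14.1% of all genes were called lower, and against MI vehicle, where 34.9% were, 3 of the 3 tested in each. Slc25a12 (chromosome 2, 71271063 to 71367749) and Slc25a13 (chromosome 6, 6041218 to 6217173) encode the calcium-regulated aspartate/glutamate carriers of the malate-aspartate shuttle, which brings reducing equivalents of NADH into the matrix. Their coding sequences were 70.6% identical. Slc25a22 (chromosome 7, 141429744 to 141437892) imports glutamate with a proton.

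Slc25a12 stood at 73.8, 76.0 and 81.7 TPM in sham vehicle, 80.2, 78.7 and 90.1 TPM in sham prednisone, 67.6, 66.0 and 61.7 TPM in MI vehicle and 44.1, 40.9 and 61.7 TPM in MI prednisone. MI prednisone replicate 3 was level with the lowest MI vehicle heart, so these groups touched, while all MI prednisone hearts lay below all sham hearts. With MI under prednisone it fell (log2 change -0.77, SE 0.14, limma adjusted p = 0.00483). With prednisone in MI it was called lower (log2 change -0.43, SE 0.14, limma adjusted p = 0.0327), but the value was 0.02 both after median-ratio rescaling and after a correction for transcript length. A transcript annotated as a target of nonsense-mediated decay held 68.4% of its TPM.

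Slc25a13 stood at 38.4, 39.8 and 42.3 TPM in sham vehicle, 37.2, 39.1 and 42.8 TPM in sham prednisone, 37.2, 44.6 and 33.7 TPM in MI vehicle and 23.8, 19.2 and 32.6 TPM in MI prednisone. The MI prednisone hearts lay below all others. The change was log2 change -0.66, SE 0.17, limma adjusted p = 0.0224 against sham prednisone and log2 change -0.61, SE 0.17, limma adjusted p = 0.0171 against MI vehicle, and neither was called once values were rescaled by median ratios (limma adjusted p = 0.116, then limma adjusted p = 0.637). Slc25a13 was 52.1 ± 0.25% of Slc25a12 in sham vehicle, 47.8 ± 1.68% in sham prednisone, 59.0 ± 7.39% in MI vehicle and 51.3 ± 3.74% in MI prednisone.

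Slc25a22 showed the steadiest fall of the 3. It stood at 24.5, 26.5 and 20.6 TPM in sham vehicle, 23.5, 17.9 and 19.1 TPM in sham prednisone, 16.2, 16.0 and 19.5 TPM in MI vehicle and 7.29, 10.2 and 10.5 TPM in MI prednisone. Every MI prednisone heart lay below every other heart. Against sham prednisone it fell by 53.7% of the mean (log2 change -1.04, SE 0.16, limma adjusted p = 0.00253), a call kept in all 22 alternative settings. Against MI vehicle it fell by 45.9% (log2 change -0.83, SE 0.16, limma adjusted p = 0.00385), lost after median-ratio rescaling (limma adjusted p = 0.0721). Under vehicle its MI effect was log2 change -0.44, SE 0.16, limma adjusted p = 0.0739, and relative to the median gene, after rescaling, it was called, as were 7.44% of all genes there, at -0.86 on the log2 scale with limma adjusted p = 0.0208. The prednisone effect on none of the 3 differed between MI and sham past the threshold (limma adjusted p = 0.0742, 0.0948 and 0.0845 for Slc25a12, Slc25a13 and Slc25a22).

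Among the nucleotide and cofactor carriers, 4 of 10 were lower in MI prednisone than in either reference group: Slc25a42, Slc25a51, Slc25a16 and Slc25a32. Of all genes 14.1% were called lower against sham prednisone and 34.9% against MI vehicle, so the share of these carriers in the latter comparison was near the background. Slc25a42 (chromosome 8, 70184340 to 70212305) brings coenzyme A into the matrix in exchange for adenine nucleotides. It stood at 25.5, 28.1 and 25.4 TPM in sham vehicle, 26.1, 21.2 and 23.0 TPM in sham prednisone, 19.7, 16.8 and 18.0 TPM in MI vehicle and 10.5, 11.5 and 14.5 TPM in MI prednisone. The groups formed steps without overlap, with sham hearts at 21.2 TPM or more, MI vehicle hearts between 16.8 and 19.7 TPM and MI prednisone hearts at 14.5 TPM or less. Only Slc25a42 was called in each of MI under vehicle, MI under prednisone and prednisone in MI, with log2 change -0.51, SE 0.13, limma adjusted p = 0.0304 for MI under vehicle, log2 change -0.90, SE 0.13, limma adjusted p = 0.00213 for MI under prednisone and log2 change -0.55, SE 0.13, limma adjusted p = 0.00872 for prednisone in MI. The second of these held in all 22 alternative settings. The first was not called without MI vehicle replicate 3 (log2 change -0.51, limma adjusted p = 0.0556), which was 1 of 9 losses in 22 alternative settings, and the third was -0.12 and not called after median-ratio rescaling.

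Slc25a51 (chromosome 4, 45395923 to 45408766) imports NAD+ into mitochondria. It stood at 25.9, 29.1 and 25.9 TPM in sham vehicle, 26.2, 24.0 and 28.5 TPM in sham prednisone, 27.6, 25.1 and 39.1 TPM in MI vehicle and 13.1, 14.2 and 16.2 TPM in MI prednisone. The MI prednisone hearts lay far below the other 9, which stood at 24.0 TPM or more. With prednisone in MI it fell by 52.7% of the mean (log2 change -1.01, SE 0.16, limma adjusted p = 0.00148), and with MI under prednisone it fell by 44.8% (log2 change -0.82, SE 0.16, limma adjusted p = 0.00599). The prednisone effect differed between MI and sham (log2 change -0.97, SE 0.22, limma adjusted p = 0.015). The fall with prednisone in MI was called after median-ratio rescaling (-0.57 on the log2 scale with limma adjusted p = 0.004), after the length correction (-0.51 on the log2 scale with limma adjusted p = 0.00807) and without MI vehicle replicate 3 (log2 change -0.83, limma adjusted p = 0.00138). It was not called for the most abundant transcript alone (limma adjusted p = 0.114), which held 41.3% of the gene's TPM. Its transcripts of 1005 and 777 bases were called lower (-2.67 and -1.63, limma adjusted p = 0.000227 and 0.00885). Those of 718 and 4433 bases, at -1.04 and 0.66, were not called. In MI prednisone hearts the most abundant one, of 4438 bases, took 18.14 to 86.95 percent of the gene and that of 4433 bases 1.02 to 74.7 percent. The part of the short transcripts in the gene's fall was not tested.

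Slc25a16 (chromosome 10, 62920633 to 62946498), linked to coenzyme A transport, stood at 9.43, 11.9 and 9.32 TPM in sham vehicle, 9.89, 9.30 and 8.63 TPM in sham prednisone, 9.28, 10.2 and 12.1 TPM in MI vehicle and 4.02, 3.71 and 6.84 TPM in MI prednisone. The MI prednisone hearts lay below all others. With prednisone in MI it fell by 53.8% of the mean (log2 change -1.01, SE 0.19, limma adjusted p = 0.00324), and with MI under prednisone it fell by 47.6% (log2 change -0.85, SE 0.19, limma adjusted p = 0.0123). The difference of the prednisone effects, log2 change -0.89, SE 0.27, limma adjusted p = 0.0395, was lost both without MI vehicle replicate 3 (log2 change -0.79, limma adjusted p = 0.0541) and once rescaled (limma adjusted p = 0.361).

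Slc25a32 (chromosome 15, 39091231 to 39112716), the folate and FAD carrier, was low throughout. It stood at 2.25, 3.21 and 2.62 TPM in sham vehicle, 2.83, 2.55 and 2.88 TPM in sham prednisone, 3.01, 3.53 and 4.10 TPM in MI vehicle and 1.52, 1.36 and 1.55 TPM in MI prednisone. The MI prednisone hearts lay below all others. The change with prednisone in MI was log2 change -0.87, SE 0.15, limma adjusted p = 0.00213 and was called in all 20 alternative settings run (the gene has no length, so the length correction could not be fitted), that with MI under prednisone was log2 change -0.60, SE 0.15, limma adjusted p = 0.0198, and the prednisone effects differed by log2 change -0.90, SE 0.21, limma adjusted p = 0.0162. Its pair of transcript rows held identical values in every library, so the split between them carries no information.

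Slc25a33 (chromosome 4, 149744036 to 149774277), a pyrimidine nucleotide carrier, had another pattern. It stood at 10.5, 10.2 and 11.6 TPM in sham vehicle, 6.26, 7.91 and 7.91 TPM in sham prednisone, 7.24, 7.22 and 8.43 TPM in MI vehicle and 7.27, 7.25 and 6.17 TPM in MI prednisone. The sham vehicle hearts lay above all 9 others. MI under vehicle lowered it (log2 change -0.45, SE 0.13, limma adjusted p = 0.0412). The call was lost in 14 of 22 alternative settings, among them without any 1 of the sham vehicle or sham prednisone hearts and without MI vehicle replicate 2, and was kept without MI vehicle replicate 3 (log2 change -0.51, limma adjusted p = 0.0349). Prednisone in sham hearts gave a value of similar size that was not called (log2 change -0.50, SE 0.13, limma adjusted p = 0.702, unadjusted p = 0.00251). It was also the only member called higher in the difference of prednisone effects after median-ratio rescaling (0.86 on the log2 scale with limma adjusted p = 0.0256).

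The other 5 carriers of nucleotides and cofactors were called in no comparison on the deposited scale. They included Slc25a26 (S-adenosylmethionine), Slc25a36 (pyrimidine nucleotides), Slc25a17 (the peroxisomal carrier) and Slc25a47, with mean levels from 1.64 to 13.5 TPM. Slc25a26 overlaps Lrig1 on the opposite strand.

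**Figure D4:**
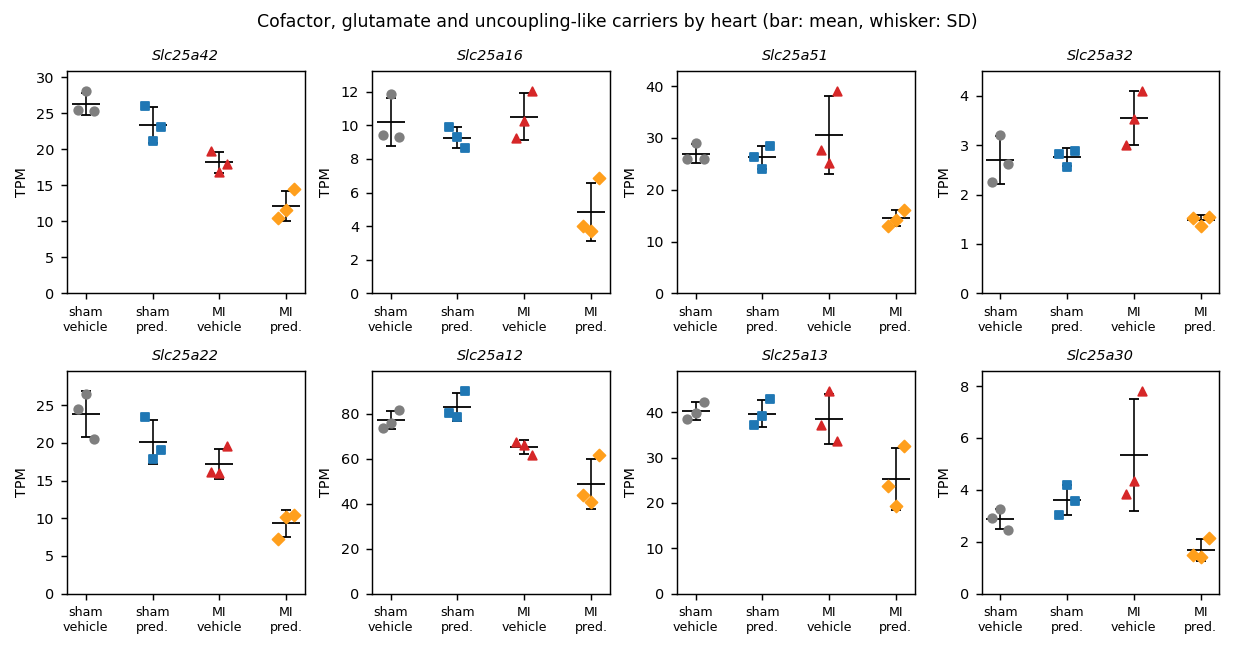
Level by heart (TPM) of 8 called members, the cofactor carriers Slc25a42, Slc25a16, Slc25a51 and Slc25a32, the glutamate and aspartate carriers Slc25a22, Slc25a12 and Slc25a13, and Slc25a30, in the 4 groups, where pred. is prednisone, horizontal bars are means and whiskers the SD of 3 hearts. The MI prednisone points are the lowest of each panel, apart from Slc25a12, where 1 of them is level with the lowest MI vehicle point.

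Of the calcium-regulated ATP-Mg/phosphate carriers, which adjust the adenine nucleotide pool of the matrix, Slc25a24 rose with MI under vehicle and was lower with prednisone in MI, while Slc25a23 and Slc25a25 were called in no contrast. Slc25a24 (chromosome 3, 109123149 to 109168457) stood at 2.15, 2.15 and 1.70 TPM in sham vehicle, 2.10, 2.59 and 2.12 TPM in sham prednisone, 3.13, 3.94 and 5.44 TPM in MI vehicle and 2.58, 1.49 and 1.64 TPM in MI prednisone. The MI vehicle hearts lay above all 9 others, and the other groups overlapped. MI under vehicle raised it (log2 change 0.77, SE 0.20, limma adjusted p = 0.0308), prednisone in MI lowered it (log2 change -0.83, SE 0.20, limma adjusted p = 0.0089), and the prednisone effects differed between MI and sham (log2 change -0.95, SE 0.28, limma adjusted p = 0.036). The rise was lost in 13 of 22 alternative settings, with median-ratio rescaling (0.43 on the log2 scale with limma adjusted p = 0.111) and without any 1 sham vehicle heart among them, and the difference of prednisone effects in 15 of 21. Without MI vehicle replicate 3 the rise was not called (log2 change 0.59, limma adjusted p = 0.0665), whereas the fall was (log2 change -0.66, limma adjusted p = 0.0179). All 6 fibroblast markers were called in the same directions, with medians of 0.98 for MI under vehicle and -1.26 for prednisone in MI, and their part in the Slc25a24 values was not tested. Slc25a23 (chromosome 17, 57043711 to 57059863) was the most abundant of the 3, at 20.6, 26.3 and 24.3 TPM in sham vehicle, 23.3, 21.7 and 28.1 TPM in sham prednisone, 24.6, 28.0 and 35.9 TPM in MI vehicle and 24.1, 29.0 and 22.5 TPM in MI prednisone, with overlap between all groups.

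Among the acylcarnitine and amino acid carriers, 3 of 6 tested were called, each in 1 contrast. Slc25a20 (chromosome 9, 108662088 to 108684641) exchanges acylcarnitine for carnitine and is the step by which long-chain fatty acids enter the matrix. It stood at 95.4, 105 and 90.5 TPM in sham vehicle, 91.4, 93.8 and 96.1 TPM in sham prednisone, 87.6, 78.8 and 84.3 TPM in MI vehicle and 69.5, 75.8 and 78.4 TPM in MI prednisone. The MI hearts lay below the sham hearts in each treatment, and MI prednisone below all other groups. With MI under prednisone it fell by 20.5% of the mean (log2 change -0.33, SE 0.09, limma adjusted p = 0.0326). The call was lost in 11 of 22 alternative settings, median-ratio rescaling among them (limma adjusted p = 0.286). Under vehicle the change was log2 change -0.21, SE 0.09, limma adjusted p = 0.108, and after rescaling -0.65 on the log2 scale with limma adjusted p = 0.0327.

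Slc25a45 (chromosome 19, 5877808 to 5885878), a carrier linked to methylated amino acids, rose with MI under vehicle. It stood at 1.59, 1.57 and 1.99 TPM in sham vehicle, 1.93, 1.34 and 2.50 TPM in sham prednisone, 2.81, 3.91 and 7.95 TPM in MI vehicle and 2.90, 3.22 and 2.66 TPM in MI prednisone. All 6 MI hearts lay above all 6 sham hearts, and replicate 3 of MI vehicle was the highest of all. The rise under vehicle, log2 change 1.02, SE 0.27, limma adjusted p = 0.0333, was not called without that heart (log2 change 0.67, limma adjusted p = 0.0526) and was lost in 10 of 22 alternative settings. Slc25a44 (chromosome 3, 88410498 to 88425139), the branched-chain amino acid carrier, stood at 5.79, 6.35 and 5.63 TPM in sham vehicle, 6.53, 5.84 and 5.71 TPM in sham prednisone, 6.49, 6.68 and 12.5 TPM in MI vehicle and 4.10, 5.24 and 5.55 TPM in MI prednisone. Prednisone in MI lowered it (log2 change -0.63, SE 0.21, limma adjusted p = 0.0347), and MI vehicle replicate 3 was the highest heart. Without it the change was log2 change -0.35, limma adjusted p = 0.0507. Slc25a29, Slc25a15 and Slc25a38, carriers of basic amino acids, ornithine and glycine, were called in no contrast.

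No carrier of di- and tricarboxylates was called in any comparison. Slc25a11 (chromosome 11, 70644196 to 70647479), which returns 2-oxoglutarate for malate in the malate-aspartate shuttle, stood at 253, 275 and 286 TPM in sham vehicle, 273.5, 269 and 297 TPM in sham prednisone, 252, 257 and 220.5 TPM in MI vehicle and 216, 217 and 255 TPM in MI prednisone. All MI prednisone hearts lay below all sham prednisone hearts, at log2 change -0.29, SE 0.10, limma adjusted p = 0.0774. The gene overlaps Rnf167 on the opposite strand (25.9 TPM), and whether the authors' counting used strand is not stated. Slc25a1, the citrate carrier that feeds fatty acid synthesis, and Slc25a10, the dicarboxylate carrier, were singled out after their values were seen. Slc25a1 ranged from 4.25 to 74.9 TPM. Its highest values, 74.9 TPM in MI vehicle replicate 3 and 68.3 TPM in MI prednisone replicate 2, fell in the libraries whose adipocyte markers (Adipoq, Plin1, Fabp4, Cidec and Ucp1) summed to 1997 and 1861 TPM, where the other 10 summed to 564 to 1030 TPM. Fabp4, at a mean of 827 TPM over all hearts, held most of these sums, and the next marker, Adipoq, had a mean of 44.1 TPM. In MI vehicle replicate 1 Adipoq, Plin1 and Cidec stood at 75.7, 41.9 and 54.0 TPM. They stood at 88.4, 51.3 and 49.5 TPM in MI prednisone replicate 2, while Ucp1 stood at 11.8 and 88.7 TPM in the same hearts. Slc25a10 was also highest in MI vehicle replicate 3 and MI prednisone replicate 2, at 25.5 and 19.2 TPM. The part of adipocyte RNA in both levels was not tested.

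Of the iron and glutathione carriers 1 of 4 was called. Slc25a39 (chromosome 11, 102402985 to 102407946), a mitochondrial glutathione carrier, stood at 93.0, 87.4 and 78.2 TPM in sham vehicle, 89.4, 86.3 and 95.0 TPM in sham prednisone, 94.6, 85.8 and 102 TPM in MI vehicle and 117, 101 and 89.5 TPM in MI prednisone, with overlap between all groups. Its close relative Slc25a40 (chromosome 5, 8422850 to 8454797) stood at 3.74, 3.04 and 3.01 TPM in sham vehicle, 2.93, 2.79 and 3.14 TPM in sham prednisone, 2.86, 5.57 and 4.05 TPM in MI vehicle and 2.29, 2.45 and 2.70 TPM in MI prednisone. Slc25a40 was called lower with prednisone in MI (log2 change -0.54, SE 0.18, limma adjusted p = 0.0402), a call lost in 18 of 22 alternative settings. The mitoferrins Slc25a28 and Slc25a37, which bring in iron, had log2 changes of 0.01 and 0.12 with prednisone in MI and were not called.

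Of the 3 uncoupling-protein-like carriers 1 was called, and its fall with prednisone in MI was the largest among the 12 called members. Slc25a30 (chromosome 14, 75760117 to 75787037), a carrier related to the uncoupling proteins and first described in kidney, stood at 2.93, 3.25 and 2.47 TPM in sham vehicle, 3.04, 4.20 and 3.59 TPM in sham prednisone, 3.83, 4.35 and 7.80 TPM in MI vehicle and 1.48, 1.41 and 2.16 TPM in MI prednisone. MI vehicle replicate 3 was highest, and the MI prednisone hearts lay below all others. With prednisone in MI it fell by 68.3% of the mean (log2 change -1.20, SE 0.22, limma adjusted p = 0.00312), and with MI under prednisone it fell by 53.3% (log2 change -0.78, SE 0.22, limma adjusted p = 0.0361). The prednisone effects in MI and sham, -1.20 and 0.25, differed by log2 change -1.44, SE 0.32, limma adjusted p = 0.0139, and this call held in all 19 alternative settings run, which do not include the length correction because the gene has no length. Without MI vehicle replicate 3 the difference was log2 change -1.18, limma adjusted p = 0.00707. Slc25a14 and Slc25a27 stood at means of 1.55 and 1.21 TPM and were called in no contrast.

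Of the members with dynamics roles or little known substrates, 2 of 4 tested were called. Slc25a34 (chromosome 4, 141618824 to 141623821), whose substrate is not settled, stood at 65.8, 65.3 and 65.8 TPM in sham vehicle, 68.2, 61.4 and 65.2 TPM in sham prednisone, 56.3, 61.8 and 39.9 TPM in MI vehicle and 39.5, 32.8 and 47.6 TPM in MI prednisone. It fell with MI under prednisone without overlap (log2 change -0.70, SE 0.16, limma adjusted p = 0.015). That call was lost after median-ratio rescaling (limma adjusted p = 0.127). Slc25a46, a protein of the outer membrane involved in mitochondrial shape and lipid traffic, stood at 14.2, 15.3 and 14.1 TPM in sham vehicle, 16.1, 15.3 and 15.4 TPM in sham prednisone, 14.4, 15.7 and 16.3 TPM in MI vehicle and 9.41, 7.50 and 11.8 TPM in MI prednisone. The MI prednisone hearts lay below all 9 others. Its difference of prednisone effects was lost in 10 of 21 alternative settings. Its changes were log2 change -0.67, SE 0.14, limma adjusted p = 0.00893 with MI under prednisone and log2 change -0.66, SE 0.14, limma adjusted p = 0.00528 with prednisone in MI. After the length correction neither was called (-0.36 on the log2 scale with limma adjusted p = 0.134 and -0.04 on the log2 scale with limma adjusted p = 0.872). Slc25a35 overlaps Rangrf on the opposite strand and, like Slc25a53, was not called.

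The difference between the prednisone effects in MI and in sham, which is the interaction of surgery and treatment, was called for 6 members, all lower: Slc25a51, Slc25a46, Slc25a16, Slc25a30, Slc25a32 and Slc25a24. That is 15.4% of those tested, where 21.3% of all genes were called and 20.7% were called lower. The median over members was -0.25, against -0.48 for all genes. After median-ratio rescaling 2 members were called, Slc25a30 lower and Slc25a33 higher, where 10.1% of all genes were, and after the length correction none, with 4 of the 6 tested there, where 2.07% of all genes with a length were. With all genes on the deposited scale, 11 members had an unadjusted p under 0.05. The number called was 2 without sham vehicle replicate 1 and 3 without sham vehicle replicate 3 or any 1 of the sham prednisone hearts. Of all genes 2797 were called with all hearts, 1110 without sham vehicle replicate 1 and 1232 without sham vehicle replicate 3. Without sham prednisone replicate 1, 2 or 3 the number was 1452, 1519 or 1348.

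Transcript length ran along with the change in the MI prednisone hearts. Over the 32 members with a length, Spearman's rho between length and the change with prednisone in MI was -0.49, beside -0.39 over 11520 genes. For the interaction it was -0.60 beside -0.44, and for prednisone in sham hearts 0.02 beside 0.20. These are descriptions across genes that share libraries. The 10 members called lower with prednisone in MI that have a length had a median of 2955 bases (2036 to 4371), and the 22 not called a median of 1906 bases (1237 to 4212). After subtracting each library's trend with length, 4 members were called for prednisone in MI, Slc25a15, Slc25a36 and Slc25a37 higher and Slc25a51 lower, the last being 1 of the 10 tested there that were called before it, where 16.4% of all genes with a length were. For MI under prednisone 4 were called, Slc25a16, Slc25a22, Slc25a42 and Slc25a51, all lower, with a background of 12.4%. Of the Slc25a4 forms, the shorter transcript fell and the longer rose with prednisone in MI. The shorter one lacks exon 4, the last exon, so the pair differs in more than length. What set their shares was not tested.

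**Figure D5:**
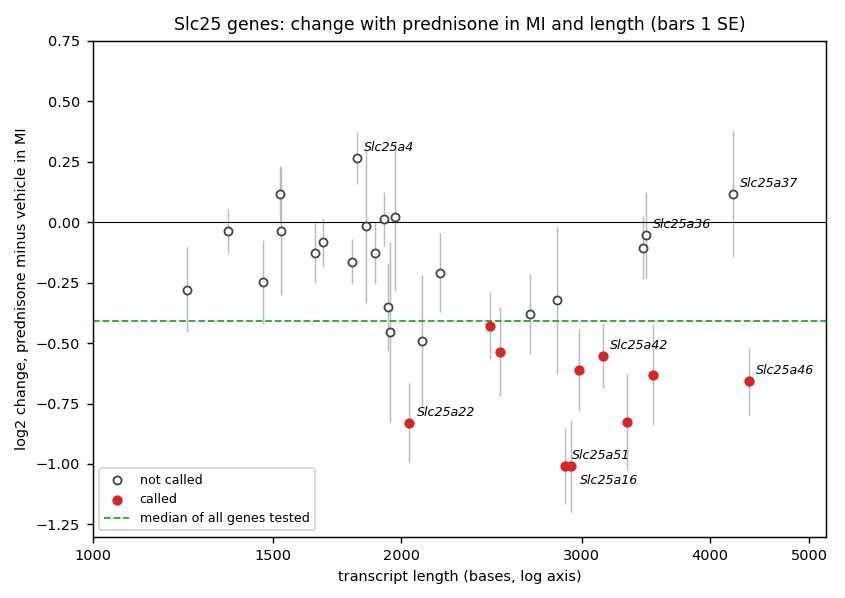
Change of 32 Slc25 genes with prednisone in MI on log2(TPM + 1) (y axis, bars of 1 SE) against transcript length in bases (log axis), filled where limma called the gene, with the median of all genes tested as a dashed line. All filled points lie at 2036 bases or longer, while Slc25a36 and Slc25a37 are long and lie near 0.

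Promoters of the members were searched on both strands for the ERR motif TCAAGGTCA and its looser form TNAAGGTCA (which contains the former), the glucocorticoid receptor palindrome and the NRF1 motif. RefSeq promoter windows on GRCm38.p6, around the transcription start, were found for 36 members (46 promoters), and none held a match. Over all 32851 promoters the shares were 0.42%, 1.28%, 0.47% and 0.97%.

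Genes that work beside the carriers moved as follows. In the carnitine shuttle, 4 of 5 were lower with MI under prednisone, where 14.1% of all genes were: Cpt1a, Cpt1b, Crat and Slc22a5, at -0.63, -0.53, -0.65 and -0.53 (limma adjusted p from 0.00283 to 0.0429). Cpt1b, the muscle enzyme that makes the acylcarnitine carried by Slc25a20, went from 211 ± 10.0 to 146 ± 15.9 TPM. Among 6 shuttle enzymes, Mdh1, Got1 and Got2 of the malate-aspartate shuttle were lower in that comparison, at -0.95, -0.50 and -0.44. Mdh1, the cytosolic malate dehydrogenase, went from 1348 ± 101 to 712 ± 202 TPM and was also lower with prednisone in MI (log2 change -0.56, limma adjusted p = 0.0188). Of the outer membrane channels, Vdac1 and Vdac2 were lower with prednisone in MI (-0.47 and -0.28, limma adjusted p = 0.00565 and 0.0246), 2 of 3, where 34.9% of all genes were. The median of all genes there was -0.41, so Vdac1 was near it and Vdac2 fell less. For these genes and those of the next paragraph only the deposited scale is given, without rescaling or length correction.

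Carriers of the same family under other symbols included Ucp2, an uncoupling-like protein prominent in leukocytes, which rose with MI under vehicle by 0.99 on the log2 scale (SE 0.30, limma adjusted p = 0.0482). It was lower with prednisone in MI (-1.39, limma adjusted p = 0.00581). In MI vehicle it stood at 120, 115 and 292 TPM. Ucp3, the muscle form, was lower with prednisone in MI (-1.20, limma adjusted p = 0.0103) and with MI under prednisone (-1.02, limma adjusted p = 0.038). Its value with prednisone in sham hearts was similar but not called (-1.06, SE 0.30, limma adjusted p = 0.882). The difference of its prednisone effects was -0.15 (limma adjusted p = 0.817). The pyruvate carrier subunit Mpc2 was higher with prednisone in MI (0.59, SE 0.11). In the import pathway that delivers carriers to the inner membrane, 3 of 11 (27.3%) were called with prednisone in MI, below the 37.4% of all genes: the receptor Tomm70a lower (-0.88, limma adjusted p = 0.00322) and the chaperones Timm9 and Timm8a1 higher (0.48 and 0.45).

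The 8 members below the filter were Slc25a43, Slc25a48, Slc25a31, Slc25a18, Slc25a21, Slc25a2, Slc25a41 and Slc25a54, none above 0.49 TPM in any heart. Slc25a31, the translocase of germ cells, reached 0.229 TPM. Slc25a54 is listed at 0 in all 12 hearts. Because TPM carries no read number, these levels cannot be given a detection limit.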

How the data were processed

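RNA of myocardium from 12 mice was sequenced from stranded mRNA libraries, per the labels' protocols. The authors deposited TPM for 105129 transcript rows, each with a gene symbol. HISAT2, Trimmomatic, kallisto and mm10 are named in the submitters' processing notes, without roles or versions. The annotation release and the use of strand in counting are not given in the sources used here. TPM keeps no read number, so depth is unknown, and fewer reads behind low members widen their error by an unknown amount.

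Transcript rows sharing a symbol were added up. Those genes that reached 1 TPM in 3 or more samples were tested on log2(TPM + 1) with limma 3.58.1 (R 4.3.3), with 4 group means over all 12 samples, a mean-variance trend and Benjamini-Hochberg adjustment over 13158 genes (over 27769 transcripts for single transcripts). A call is an adjusted p under 0.05. The limma fit was tested on simulated data, independent normal values with known changes in the MI prednisone hearts. They held no library-wide shift, trend with length or outlying library, so the test does not bear on those features. Groups are those of the labels. Nothing there pairs mice across groups.

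Alternatives were median-ratio rescaling, removal of 31 mitochondrial, nuclear-copy and globin symbols, no filter, a pseudocount of 0.1, no trend, a replicate block, only the groups compared, each mouse left out, the most abundant transcript, and a correction for transcript length (loess, span 0.5, 87.6% of genes) with and without the block. The refits of 3 Slc25a3 and Slc25a4 transcripts were chosen after seeing the data. Per-heart values were given for members called in at least 1 contrast or among the 10 highest by mean TPM, 22 in all. The values of 1 tested member, which was called in no contrast, are not reported here. Members and lists were chosen with earlier results of these data known.

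Lengths, loci and the sequences of Slc25a3 and Slc25a4 came from GENCODE M21 on GRCm38, which held 94.7% of the rows, 97.8% of these under the same symbol. Ratios and shares were compared by two-sided exact permutation tests, which cannot go below 0.1 here. Python 3.11.15, pandas 2.3.3, scipy 1.17.1, matplotlib 3.10.9 and biopython 1.88 were used.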

Additional observations from a re-analysis of the deposited data

Results flagged for a closer look

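For 6 members the prednisone effect in MI differed from that in sham by limma's test of the interaction over all genes. On log2(TPM + 1) the difference, MI minus sham, was -1.44 for Slc25a30, -0.97 for Slc25a51, -0.95 for Slc25a24, -0.90 for Slc25a32, -0.89 for Slc25a16 and -0.76 for Slc25a46. All genes tested had a median difference of -0.48. The 6 were 15.4% of the members tested, where 21.3% of all genes were called and 20.7% were called lower. After median-ratio rescaling only Slc25a30 of the 6 was called. The calls of Slc25a16 and Slc25a24 were each lost in 15 of 21 alternative settings, and that of Slc25a46 in 10 of 21. Single hearts were not tested as outliers within their group, since groups of 3 are too small for that test.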

How the results depend on the processing

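Counts of called members are given for each setting, and they can hold members other than those first called. MI under vehicle gave 4, and 1 with no filter, 2 with the replicate block (1 of them among the 4), and 0 with only the groups compared, with the most abundant transcript or with the length correction and replicate block. Of all genes 2100 of 13158 were called, and in these settings 1068 of 23629, 1056 of 13158, 2 of 13158, 586 of 12422 and 70 of 11520. Median-ratio rescaling gave 6 members and removal of the mitochondrial, nuclear-copy and globin symbols gave 5, with 3 of the first 4 in each. Of all genes 979 of 13158 and 1535 of 14690 were called in those settings. With 1 mouse left out the count of members ranged from 0 to 9, and that of all genes from 120 to 5570. MI under prednisone gave 12, and 4 with the length correction and 3 with the length correction and replicate block, all among the 12, and 5 to 13 with 1 mouse left out. Of all genes 2213 of 13158 were called, then 1428 and 871 of 11520, and 1023 to 3986 with 1 mouse left out. After median-ratio rescaling 8 members were called in this comparison, all among the 12, and 3417 of 13158 genes. Prednisone in MI gave 12, and 2 with only the groups compared, both among the 12, 4 with the length correction and 3 with that and the replicate block, of which 1 each was among the 12, and 8 to 13 with 1 mouse left out. Of all genes 4917 of 13158 were called, then 808 of 13158, 1885 and 1280 of 11520, and 3242 to 6221 with 1 mouse left out. The interaction gave 6, and 2 after median-ratio rescaling (1 among the 6), 0 with the length correction, alone or with the replicate block, and 2 to 9 with 1 mouse left out. Of all genes 2797 of 13158 were called, then 1323 of 13158, 238 and 95 of 11520, and 1110 to 4496 with 1 mouse left out. Prednisone in sham gave 0 with any mouse left out. The length correction tested 32 members rather than 39, without Slc25a30 and Slc25a32, so 10 of the 12 in each comparison and 4 of the 6. Comparisons of only the groups used 6 hearts. Otherwise the cause was not tested.

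The value of Slc25a12 for prednisone in MI turned to 0.0233 after median-ratio rescaling and to 0.0165 after the length correction, with or without the replicate block. Of 39 called results for members and transcripts, the replicate block left 30 called and 9 not. Same-numbered hearts did not deviate together (mean correlations from -0.37 to 0.003). With deviations taken from means of 3 hearts, this cannot show whether the numbers stand for a shared batch, and the labels do not say. Calls that held in all alternatives run for them were Slc25a22 and Slc25a42 for MI under prednisone, Slc25a32 for prednisone in MI and Slc25a30 for the interaction. The Slc25a4 retained-intron transcript held in both comparisons of MI prednisone hearts with another group. The length correction was not run for Slc25a30, Slc25a32 or that transcript. For the transcript, the settings with no filter, with symbols removed and with the most abundant transcript were not run either, which left 17 alternatives. With 3 hearts a group and unknown depth, small changes of low members were not detectable with any stated precision.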
